A study of Mus musculus with 4 samples.

Results

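The tetraspanins *Cd9*, *Cd37*, *Cd53*, *Cd63*, *Cd81*, *Cd82* and *Cd151* were followed across thymocyte development in WT and *Eif4g2* cKO thymus. All 7 symbols were found once in the gene lists of both libraries, among 21926 gene identifiers. The set was selected on earlier results of these libraries, in which the *Eif4g2* cKO to WT ratio of *Cd81* in post-selection cells stood out as high, and the others were listed beside it by name. The *Cd81* ratios after selection are therefore given as a description of what drew attention to the gene, without a test.

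The WT mouse carried *Eif4g2* flox/flox alleles without Cre, and the *Eif4g2* cKO mouse carried CD4-Cre; *Eif4g2* flox/flox. Both mice were 5 weeks old and labelled female, and unsorted thymus cells of each gave 1 droplet library. *Cd4* regulatory sequences drive the Cre, so deletion is restricted to thymocytes that have reached the CD4+CD8+ double-positive (DP) stage, and CD4-CD8- double-negative (DN) and non-T cells of the *Eif4g2* cKO mouse should keep the floxed alleles intact. With 1 mouse per genotype, the genotype cannot be told apart from any other difference between these libraries, and no p-value was computed.

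Tetraspanins are small membrane proteins that cross the membrane several times and gather integrins, receptors, proteases and adhesion proteins into microdomains. Some members are found mainly at the cell surface, others in late endosomes and in the vesicles that cells release. In T cells, CD81, CD82, CD9, CD53 and CD37 have been linked to costimulation, adhesion and the organisation of the immune synapse.

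Developing thymocytes pass from DN cells through a burst of division to resting DP cells. DP cells whose receptor binds self-peptide on MHC are signalled and become CD69+ early post-selection cells, which then mature into single-positive (SP) cells that are ready to leave the thymus. Cells of both libraries were clustered together without the tetraspanin genes. A name followed by "-like" needed at least 3 raised markers of a cell type, and no other type with more markers among the genes leading the cluster. The cycling name could take precedence over DP where at least 3 cycling markers were raised. A cluster of 149 WT and 101 *Eif4g2* cKO cells with 5 DP and 3 cycling markers raised was thus named cycling-like. In the order WT then *Eif4g2* cKO, the classes held 96 and 128 DN-like cells, 3326 and 2084 DP-like cells, 585 and 1253 cycling-like cells, 988 and 696 early post-selection-like cells, and 447 and 54 mature SP-like cells. Smaller classes held 55 and 15 NKT or γδ T-like cells, 65 and 24 antigen-presenting-like cells, and 44 and 4 erythroid-like cells.

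The WT library held 18355050 unique molecular identifiers (UMIs, each a counted transcript molecule) and the *Eif4g2* cKO library 18056277. Of the running barcode numbers, 1055 occurred in both libraries, 0 of them with the same UMI total. Transcripts of *Eif2s3y*, *Uty* and *Kdm5d*, on the Y chromosome, were counted 2542 times in the WT library and 1 time in the *Eif4g2* cKO library, although both mice are labelled female. Haemoglobin genes summed to 272 counts per 1000000 UMIs of the class (CPM) in WT DP-like cells and 15.5 CPM in *Eif4g2* cKO DP-like cells. The DP-like class was made of a cluster of 3152 WT and 167 *Eif4g2* cKO cells and another of 174 WT and 1917 *Eif4g2* cKO cells. *Eif4g2* itself was counted, WT first, at 143 and 192 CPM in DN-like, 261 and 528 CPM in DP-like, 256 and 382 CPM in early post-selection-like and 165 and 279 CPM in mature SP-like cells. It was lower in the *Eif4g2* cKO library in cycling-like cells, at 254 and 186 CPM. Reads come from near the 3′ end and the labels do not say which exons are floxed, so these counts do not check the deletion.

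*Cd81* had the highest *Eif4g2* cKO to WT ratio of the 7 tetraspanins in mature SP-like cells. Within the WT T lineage *Cd81* was highest in DP-like cells and was lower again in mature SP-like cells. From DP-like to mature SP-like cells the log2 step was -1.51 (-1.83 to -1.20) in WT. In *Eif4g2* cKO it was -0.33 (-0.87 to 0.16), an interval that includes no difference but also allows a fall. The mature SP-like level was 142 CPM (95% Poisson interval 98.6 to 197, 35 UMIs) in *Eif4g2* cKO against 49.4 CPM (40.1 to 60.3, 97 UMIs) in WT. The intervals cover counting error only and say nothing of the spread between mice.

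The *Cd81* gene lies at chr7:143052739-143067934 on the plus strand (mm10, GENCODE M21). In DN-like cells, 15 WT and 34 *Eif4g2* cKO UMIs gave 23.6 CPM (13.2 to 38.9) and 37.6 CPM (26.0 to 52.5). The WT DN-like level lay within the interval of WT erythroid-like cells (11.1 CPM, 2.28 to 32.3, 3 UMIs), which should hold the transcript only as free RNA. In DP-like cells the level was 141 CPM (131 to 151, 737 UMIs) in WT against 178 CPM (164 to 193, 609 UMIs) in *Eif4g2* cKO. Entry into the DP stage thus went with a higher *Cd81* level in both libraries, by 2.58 on the log2 scale (1.85 to 3.42) in WT and 2.24 (1.75 to 2.79) in *Eif4g2* cKO.

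In early post-selection-like cells *Cd81* stood at 116 CPM (103 to 131, 272 UMIs) in WT against 160 CPM (142 to 179, 309 UMIs) in *Eif4g2* cKO. From there to the mature SP-like class the WT level was lower by 2.35 times, a log2 difference of -1.23 (-1.58 to -0.89). The same step in *Eif4g2* cKO was -0.17 (-0.72 to 0.33), an interval that includes no difference. Ordered by level, the WT classes ran from DP-like through cycling-like (118 CPM, 105 to 131) and early post-selection-like to mature SP-like and then DN-like cells, and the cycling-like and early post-selection-like intervals overlapped almost wholly. In *Eif4g2* cKO the DP-like, early post-selection-like and mature SP-like intervals each overlapped the next, with levels above cycling-like (100.4 CPM, 94.5 to 107) and DN-like cells. The mature SP-like interval (98.6 to 197) also overlapped the cycling-like one.

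**Figure D1:**
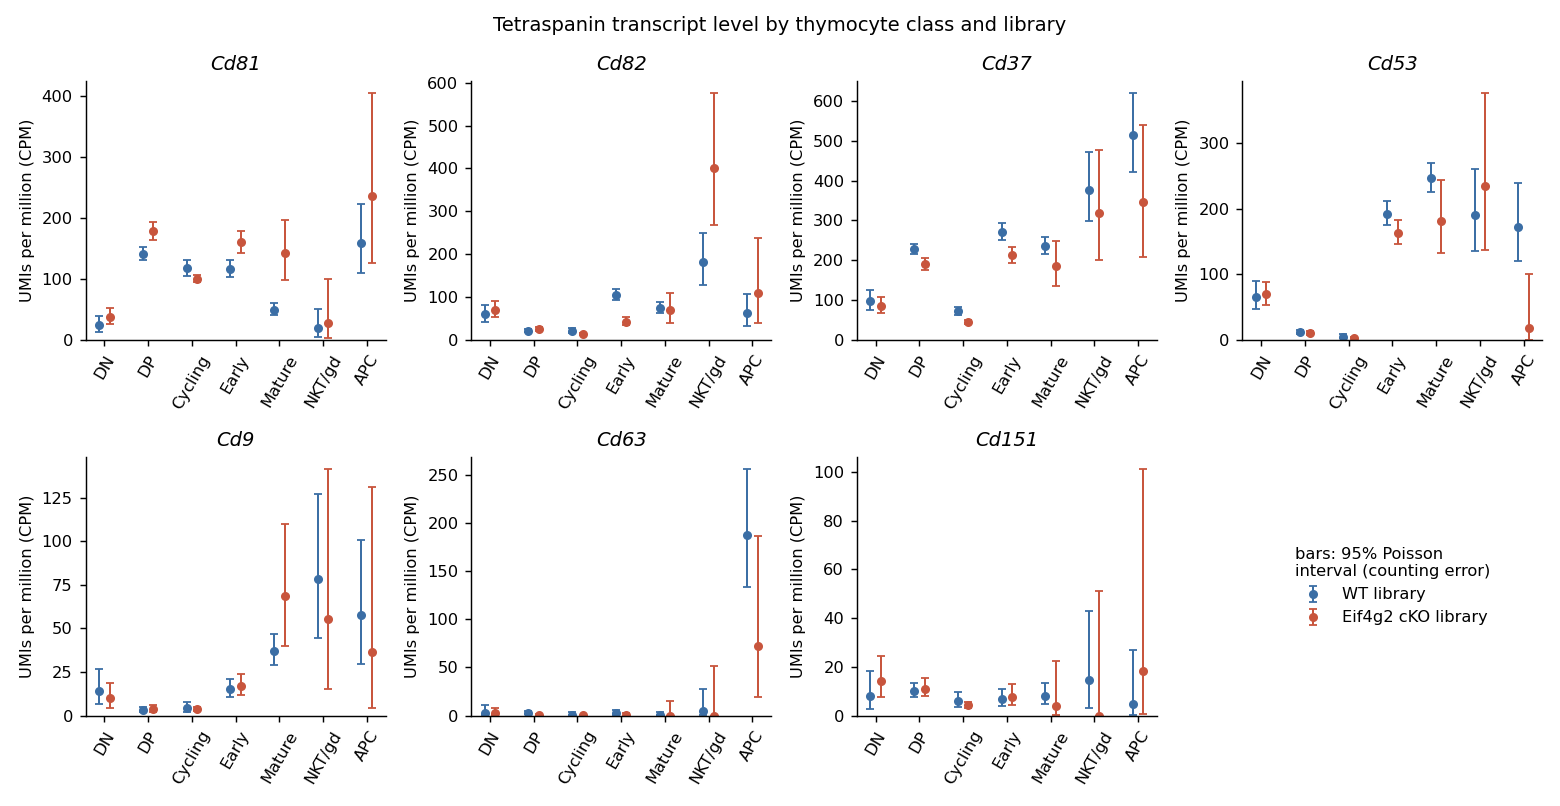
Transcript level of each of the 7 tetraspanins (vertical axis, counts per 1000000 UMIs of the class, starting at 0, with its own scale in each panel) in 7 classes of cells, WT in blue and *Eif4g2* cKO in red, with bars for the 95% Poisson interval. *Cd81* falls from 141 CPM in DP-like to 49.4 CPM in mature SP-like WT cells while the *Eif4g2* cKO mature level is 142 CPM, *Cd82* is higher in WT early post-selection-like cells (105 against 42.4 CPM), and *Cd63* is near 0 outside antigen-presenting-like (APC) cells.

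Between the libraries, *Cd81* was higher in *Eif4g2* cKO by 1.52 on the log2 scale in mature SP-like cells (0.92 to 2.09), 2.86 times. In early post-selection-like cells the log2 ratio was 0.46 (0.22 to 0.70) and in DP-like cells 0.34 (0.18 to 0.49). In DN-like cells, which precede the Cre, it was 0.67 (-0.25 to 1.65). Of 5396 genes with at least 50 UMIs in the mature SP-like class, 40 had a higher ratio than *Cd81*, and of 7449 in the early post-selection-like class 596 had.

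The mature value rests on 54 *Eif4g2* cKO cells. Clustering each library alone gave 308 *Eif4g2* cKO cells in a cluster with 6 of 7 mature SP markers raised and also all 8 NKT or γδ T, 4 of 7 early post-selection and 3 of 6 Treg markers, with *Tnfrsf9* among its leading genes, and there the *Cd81* log2 ratio was 1.49 (1.11 to 1.87). Taking mature cells by UMIs of *Klf2*, *Ccr7*, *S1pr1* and *Ms4a4b* in place of clusters gave 1.09 (0.64 to 1.54). After each cell was thinned to 1000 UMIs it was 0.73 (-1.01 to 2.14), on 25 of 447 WT cells and 5 of 54 *Eif4g2* cKO cells with a *Cd81* UMI.

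Markers of other classes differed between the libraries within the mature SP-like class. The 7 mature SP markers summed to 2505 CPM in WT against 2070 CPM in *Eif4g2* cKO, and all 7 had UMIs in both. The 7 DP markers summed to 1842 and 1735 CPM and the 7 cycling markers to 1246 and 2491 CPM. Markers of antigen-presenting cells, which carry much *Cd81* transcript (158 CPM in WT against 236 CPM in *Eif4g2* cKO, on 33 and 13 UMIs), summed to 77.4 and 16.2 CPM, with 11 and 3 of 13 found. Restricting the class to cells with no UMI of the antigen-presenting or B cell markers left the log2 ratio at 1.62 (0.92 to 2.29), and the part of the cycling markers was not tested.

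Inside each DP-like cluster the interval of the *Cd81* ratio included 0. In the mostly WT cluster *Cd81* was 140 CPM in WT against 133 CPM in *Eif4g2* cKO, with a log2 ratio of -0.07 (-0.55 to 0.37). In the mostly *Eif4g2* cKO cluster it was 148 and 183 CPM, a ratio of 0.30 (-0.16 to 0.81) that is close to the class value but rests on 39 WT UMIs. With DP cells taken by UMIs of *Rag1* or *Rag2* instead, both libraries stood at 118 CPM. That definition has no cycling class, so its DP set can hold dividing as well as resting cells, and their part was not tested. The DP-like value of 0.34 thus depends on which cells are counted as DP.

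Among the early post-selection-like clusters, the interval of the *Cd81* ratio excluded 0 in the one led by *Cd5*, *Tox* and *Egr1*, genes that follow receptor signalling. That cluster held 520 WT and 382 *Eif4g2* cKO cells at 104 CPM (85.1 to 127) and 186 CPM (156 to 221), with a log2 ratio of 0.84 (0.45 to 1.22). Another, led by *Tnfrsf9*, *Nr4a1* and *Cd200*, which are induced by strong receptor signals, held 115 and 306 cells at 116 CPM (83.8 to 156) and 146 CPM (125 to 169), a ratio of 0.34 (-0.15 to 0.85). The remaining one, led by *Chl1* and *Itm2a*, held 353 WT cells and 8 *Eif4g2* cKO cells. Its WT level was 128 CPM (106 to 152) and its *Eif4g2* cKO level 47.6 CPM on 1 UMI, a ratio of -1.42 (-6.74 to 1.08), and without it the early post-selection-like ratio was 0.58 (0.29 to 0.88).

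In cycling-like cells *Cd81* was 118 CPM in WT against 100.4 CPM in *Eif4g2* cKO, with a log2 ratio of -0.23 (-0.41 to -0.05). The 4 cycling-like clusters gave ratios of 0.01, 0.78, 0.20 and 0.35 on their own, and the libraries filled them differently. One cluster, with the replication gene *Gins2* among its leading genes, held 35 WT and 822 *Eif4g2* cKO cells. A replication-led cluster of 403 WT and 58 *Eif4g2* cKO cells stayed unnamed and is not counted in the class. Its *Cd81* was 65.5 and 77.2 CPM, below both pooled cycling-like levels. The pooled ratio thus compares unlike sets of replicating cells. The sign of the pooled cycling-like value also turned with the scaling and with thinning of the same cells, and the cause was not tested.

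Cells were also counted at equal depth. After thinning to 1000 UMIs, 12.2% of WT DP-like cells (Clopper-Pearson 95% interval 11.1 to 13.4) and 15.3% of *Eif4g2* cKO DP-like cells (13.8 to 16.9) had a *Cd81* UMI. In early post-selection-like cells the shares were 10.5% (8.68 to 12.6) and 14.1% (11.6 to 16.9). In mature SP-like cells they were 5.59% (3.65 to 8.15) and 9.26% (3.08 to 20.3), intervals that overlap. In cycling-like cells they were 9.40% (7.16 to 12.1) and 11.6% (9.85 to 13.5), also overlapping and in the opposite order to the CPM, so no direction is read there. WT erythroid-like cells, which should lack these transcripts apart from free RNA, gave 2.27% (1 of 44 cells), from a median of 6089.5 UMIs before thinning against 1397.5 in WT DP-like cells. Haemoglobin genes took 907007 CPM of that class, so its thinned share and its CPM understate free RNA beside a T cell. Without thinning, 6.82% of these cells (3 of 44) had a *Cd81* UMI, against 16.7% of WT DP-like cells.

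*Cd82*, known as a metastasis suppressor and a costimulatory protein of T cells, went the other way after selection. In early post-selection-like cells it was 105 CPM (92.2 to 119, 246 UMIs) in WT against 42.4 CPM (33.7 to 52.6, 82 UMIs) in *Eif4g2* cKO, with a log2 ratio of -1.31 (-1.69 to -0.94). Of 7449 genes with at least 50 UMIs there, 482 had a lower ratio. The step up from DP-like cells was 2.29 (1.97 to 2.63) in WT and 0.77 (0.32 to 1.23) in *Eif4g2* cKO.

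The *Cd82* ratio was lowest in the early cluster led by *Tnfrsf9* and *Nr4a1*, in which all 7 early post-selection markers and 4 of 6 regulatory T cell (Treg) markers were raised. There 105 WT UMIs over 115 cells gave 283 CPM (231 to 342), and 52 *Eif4g2* cKO UMIs over 306 cells gave 43.2 CPM (32.2 to 56.6). The log2 ratio was -2.71 (-3.22 to -2.22), and 13 of the 3996 genes with at least 50 UMIs in that cluster had a lower one. In the cluster led by *Cd5* and *Tox* the levels were 45.6 and 40.9 CPM, a ratio of -0.16 (-0.88 to 0.55), so the 2 intervals of the ratio do not overlap. The 7 early post-selection markers themselves summed to 4348 CPM in WT against 2662 CPM in *Eif4g2* cKO over the whole class. The 6 Treg markers, all found in both libraries, summed to 1011 and 651 CPM. The part of these differences in the *Cd82* value was not tested.

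In the WT cells of the cluster led by *Chl1* and *Itm2a*, *Cd82* was 97.4 CPM (78.9 to 119). Without that cluster the early post-selection-like ratio was -1.38 (-1.79 to -0.98). In mature SP-like cells *Cd82* was 75.4 CPM (63.7 to 88.6) in WT against 68.8 CPM (40.1 to 110) in *Eif4g2* cKO, a ratio of -0.13 (-0.95 to 0.59). In DP-like cells it was 21.4 and 24.8 CPM, a ratio of 0.21 (-0.21 to 0.63), and in DN-like cells 59.8 and 70.7 CPM. The DP-like levels and the cycling-like levels (20.7 and 14.7 CPM) lay within the interval of WT erythroid-like cells (7.37 CPM, 0.89 to 26.6, 2 UMIs). They cannot be told from free RNA at this depth, and the *Cd82* steps from DP-like cells start from such a level. Of the main classes, the interval of the *Cd82* ratio excluded 0 in early post-selection-like cells and, by a small margin, in cycling-like cells (-0.50, -0.94 to -0.03). Within single cycling-like clusters the *Cd82* ratio was 0.65, -0.98 and -1.60, and the remaining cluster held 0 WT and 31 *Eif4g2* cKO UMIs. The pooled cycling-like value again compares unlike sets of replicating cells.

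**Figure D2:**
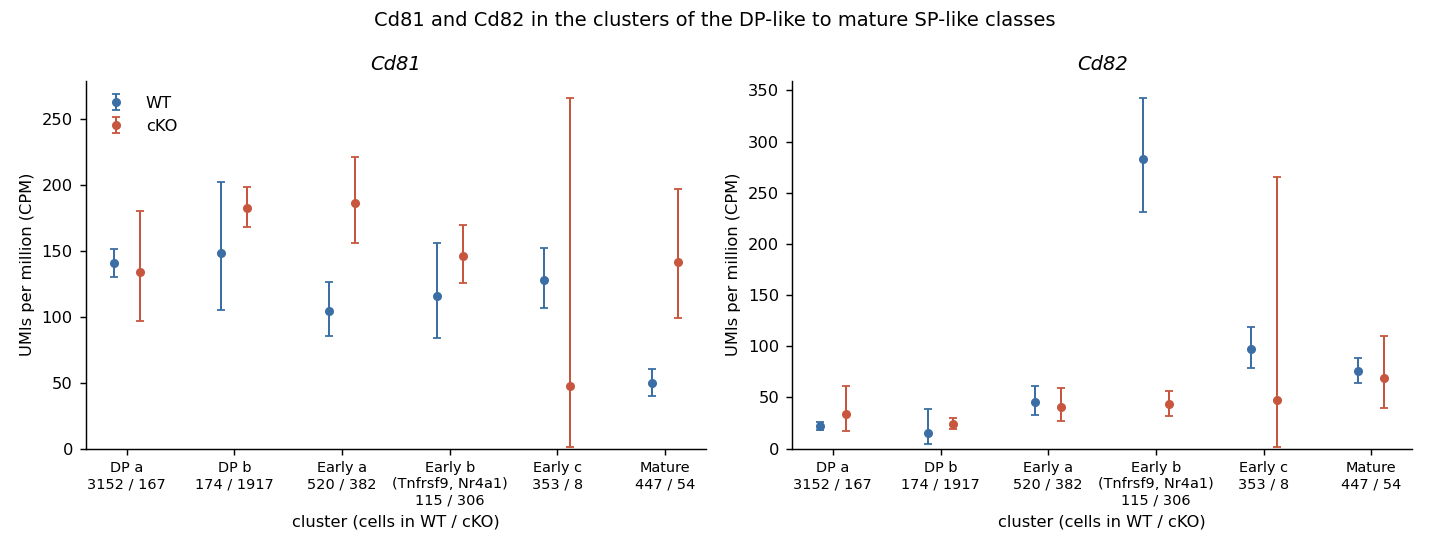
*Cd81* (left) and *Cd82* (right) in CPM (vertical axis, from 0) in the DP-like, early post-selection-like and mature SP-like clusters, with the number of WT and *Eif4g2* cKO cells under each name and bars for the 95% Poisson interval. *Cd81* lies apart between the libraries in the first early cluster (104 and 186 CPM) and in mature cells (49.4 and 142 CPM), and *Cd82* in the early cluster led by *Tnfrsf9* and *Nr4a1* (283 and 43.2 CPM).

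Among the pooled classes, *Cd82* was highest in NKT or γδ T-like cells, at 181 CPM (127 to 250, 37 UMIs) in 55 WT cells and 401 CPM (269 to 576, 29 UMIs) in 15 *Eif4g2* cKO cells. The log2 ratio was 1.15 (0.39 to 1.89). Of 658 genes with at least 50 UMIs in this class, 19.9% were higher in *Eif4g2* cKO by more than 0.5 and 19% lower, so a value past 0.5 was common. Antigen-presenting markers summed to 489 CPM in the WT and 2613 CPM in the *Eif4g2* cKO cells of this class, against 62.4 and 109 CPM of *Cd82* in antigen-presenting-like cells themselves.

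*Cd53*, a tetraspanin restricted to leukocytes that takes part in lymphocyte adhesion and recirculation, marked the passage through selection in both genotypes alike. DP-like cells held 12.2 CPM (9.42 to 15.6) in WT against 10.2 CPM (7.12 to 14.2) in *Eif4g2* cKO. Early post-selection-like cells held 193 CPM (175 to 211) and 164 CPM (146 to 183). The step was 3.98 on the log2 scale (3.60 to 4.38) in WT and 4.0 (3.5 to 4.55) in *Eif4g2* cKO.

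Mature SP-like cells had the highest *Cd53* level of the main classes, 247 CPM (225 to 269) in WT against 182 CPM (133 to 244) in *Eif4g2* cKO. The log2 ratio between libraries was -0.44 (-0.91 to 0.00) there and -0.23 (-0.45 to -0.02) in early post-selection-like cells. The latter value depended on the cluster led by *Chl1* and *Itm2a*, which held 353 WT and 8 *Eif4g2* cKO cells. Without that cluster the early post-selection-like ratio of *Cd53* was 0.19 (-0.08 to 0.46). In DN-like cells, before the DP stage, *Cd53* was 66.1 and 69.6 CPM, so DP-like and cycling-like cells formed a trough between DN-like and selected cells. Cycling-like cells held 4.8 and 3.4 CPM. The DP-like level lay within the interval of WT erythroid-like cells (3.7 CPM, 0.09 to 20.5, 1 UMI) and cannot be told from free RNA at this depth.

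*Cd37*, another leukocyte tetraspanin that restrains signalling in lymphocytes, was present at every stage and was lowest in dividing cells. In WT it ran from 97.6 CPM (74.8 to 125) in DN-like to 229 CPM (216 to 242) in DP-like, 271 CPM (250 to 293) in early post-selection-like and 236 CPM (215 to 258) in mature SP-like cells. In *Eif4g2* cKO the values were 86.2 CPM (68.1 to 108), 190 CPM (176 to 206), 212 CPM (192 to 233) and 186 CPM (136 to 248). Cycling-like cells held 72.0 CPM (62.2 to 82.8) and 44.9 CPM (41.0 to 49.1). The unnamed replication-led cluster, outside that class and mostly WT, held 40.6 CPM (35.1 to 46.7) and 52.0 CPM (35.3 to 73.8).

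The log2 ratio of *Cd37* was below 0 in all 5 main classes. It was -0.18 in DN-like, -0.26 (-0.40 to -0.12) in DP-like, -0.68 (-0.92 to -0.43) in cycling-like, -0.35 (-0.54 to -0.17) in early post-selection-like and -0.34 (-0.81 to 0.10) in mature SP-like cells. These values lie near the median of all genes in the same classes, which was -0.09, -0.19, -0.45, -0.29 and -0.16. The median shows that the typical gene was lower relative to the total in the *Eif4g2* cKO library. Within single cycling-like clusters the *Cd37* ratio was 2.01 and 1.45 (on 2 WT UMIs each), 0.09 and -0.34. The libraries filled these clusters differently, and the part of this in the pooled value was not tested. Inside each DP-like cluster the interval of *Cd37* included 0 (-0.12, -0.49 to 0.23, and -0.17, -0.57 to 0.25). *Cd37* at chr7:45233632-45239115, minus strand, overlaps *Tead2* on the plus strand, and whether the counting used the strand is not given in the sources used here.

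*Cd9*, which acts in cell fusion and adhesion and is abundant on platelets and eggs, was scarce until maturation. DP-like cells held 3.25 CPM (17 UMIs) in WT against 3.51 CPM (12 UMIs) in *Eif4g2* cKO, early post-selection-like cells 15.4 CPM (10.7 to 21.3) and 17.1 CPM (11.7 to 24.0), and mature SP-like cells 37.2 CPM (29.1 to 46.7) and 68.8 CPM (40.1 to 110). From DP-like to mature SP-like cells the level was higher by 3.52 (2.74 to 4.37) on the log2 scale in WT and 4.29 (3.14 to 5.49) in *Eif4g2* cKO. The ratio between libraries in mature SP-like cells was 0.89 (0.03 to 1.66), on 73 and 17 UMIs, and it did not keep its sign when each library was clustered alone (-0.20) or when cells were thinned (-0.04).

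*Cd63*, a protein of late endosomes, lysosomes and released vesicles, was almost absent from thymocytes. The T lineage as a whole gave 32 UMIs in WT and 9 in *Eif4g2* cKO, and no T lineage class in WT exceeded 4.89 CPM. Antigen-presenting-like cells held 187 CPM (133 to 256, 39 UMIs) in WT against 72.7 CPM (19.8 to 186, 4 UMIs) in *Eif4g2* cKO. In mature SP-like *Eif4g2* cKO cells 0 UMIs were counted, which allows up to 12.1 CPM.

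*Cd151*, a partner of laminin-binding integrins, was low in every class, between 4.04 and 14.4 CPM in the main classes of both libraries. In DP-like cells 53 and 38 UMIs gave 10.1 CPM (7.59 to 13.2) and 11.1 CPM (7.86 to 15.2). WT erythroid-like cells gave 3.7 CPM (0.09 to 20.5) on 1 UMI, an interval that contains each of the main-class values. The log2 ratio in DP-like cells was 0.13 (-0.51 to 0.76), and in the other 4 main classes the intervals also included 0.

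Read against all genes, the members did not move as a set. A gene was counted as higher or lower when its log2 ratio was past 0.5 and at least 50 UMIs were found over both libraries. In the DN-like class 0 of the 3 members with enough UMIs passed, where 10.4% of 3919 genes were higher and 26.7% lower. In the DP-like class 0 of 5 passed, where 8.34% of 8837 genes were higher and 30.1% lower.

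In the cycling-like class 2 of 6 members, *Cd37* and *Cd151*, were lower and 0 were higher, beside 46.9% and 8.89% of 8834 genes. *Cd151* was barely past the cut at -0.501 (-1.35 to 0.42), and *Cd82* barely inside it at -0.496 (-0.94 to -0.03). In the early post-selection-like class *Cd82* was lower and 0 of 5 were higher, beside 37.4% and 6.97% of 7449 genes. In the mature SP-like class 2 of 5, *Cd81* and *Cd9*, were higher and 0 were lower, beside 15.2% and 34.4% of 5396 genes. In the early cluster led by *Cd5* and *Tox*, *Cd81* was higher, where 10% of 5162 genes were higher and 31.3% lower. In the early cluster led by *Tnfrsf9* and *Nr4a1*, *Cd82* and *Cd37* were lower, where 32.6% of 3996 genes were lower and 12.1% higher. These shares describe the members and are not tests.

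**Figure D3:**
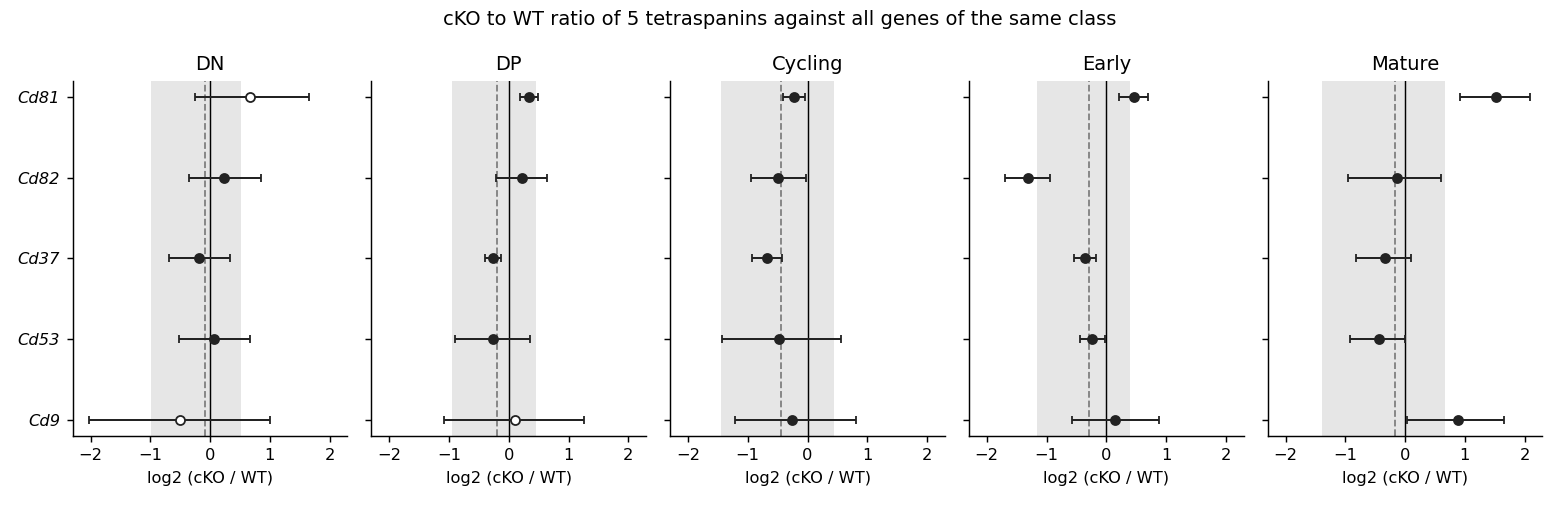
Log2 ratio of *Eif4g2* cKO to WT (horizontal axis) for 5 tetraspanins in each main class, with bars for the exact conditional binomial 95% interval and open points for genes with fewer than 50 UMIs. The grey band spans the 10th to 90th percentile of all genes with at least 50 UMIs and the dashed line is their median; *Cd81* lies right of the band in early post-selection-like (0.46) and mature SP-like cells (1.52), *Cd82* left of it in early post-selection-like cells (-1.31) and *Cd9* right of it in mature SP-like cells (0.89).

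The genes lay on 5 chromosomes, with *Cd37*, *Cd81* and *Cd151* apart from each other on chromosome 7. Their spans ran from 4.08 kb for *Cd151* to 44.0 kb for *Cd82*, and the ratio of all genes moved with span in every main class. Genes of 10 to 20 kb, like *Cd81* with 15.2 kb, had a median log2 ratio of -0.10 in early post-selection-like and 0.04 in mature SP-like cells. Genes of 20 to 50 kb, like *Cd82*, had -0.33 and -0.18. The *Cd81* and early *Cd82* values lie beyond these medians by more than 0.5, and how much of the remainder goes with span was not tested.

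Summed over the 7 members, which differ in direction, the libraries were close in some classes: 272 CPM in WT against 291 CPM in *Eif4g2* cKO DN-like cells, 419 and 419 CPM in DP-like cells, and 653 and 651 CPM in mature SP-like cells. The sum was lower in *Eif4g2* cKO in early post-selection-like cells, at 709 CPM (676 to 744) and 603 CPM (569 to 639), and in cycling-like cells, at 227 CPM (209 to 245) and 172 CPM (164 to 180), with log2 ratios of -0.23 (-0.34 to -0.12) and -0.40 (-0.53 to -0.27). Over the whole T lineage, not split by class, *Cd53* was 62.0 and 28.7 CPM and *Cd37* 158 and 96.0 CPM. The log2 ratios of -1.11 and -0.72 lay beyond those of every main class. The cycling-like class, low in both genes, held 10779439 UMIs in *Eif4g2* cKO against 2708915 in WT. That class leaves out the unnamed replication-led cluster of 403 WT and 58 *Eif4g2* cKO cells, so these totals do not cover all replicating cells. In that cluster *Cd37* was 40.6 and 52.0 CPM and *Cd53* 3.1 and 1.7 CPM. *Cd3e*, a chain of the T cell receptor complex, was 836 and 841 CPM over the T lineage.

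Over the 5 main classes in 2 libraries, 10 points that share libraries and depth, *Cd53* ran with *Cd82* (Pearson r of log2 levels 0.91) and *Cd9* (0.84). *Cd81* ran with none of these, at -0.24 with *Cd53*, -0.43 with *Cd82* and -0.14 with *Cd9*. *Cd53*, *Cd82* and *Cd9* therefore shared a higher level after selection than in DP-like cells, beside the DP-centred pattern of *Cd81*, with *Cd37* high in both. Against DN-like cells this did not hold for *Cd82* in *Eif4g2* cKO, at 70.7 CPM there and 42.4 CPM in early post-selection-like cells. *Cd63* and *Cd151*, both low, were placed in neither pattern. Of 8618 genes with at least 200 UMIs, the 5 most like *Cd81* over these points were *Ap1s2* (r 0.98), *Ywhab* (0.96), *2610002M06Rik* (0.96), *Ywhaz* (0.96) and *Yeats4* (0.95).

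*Ap1s2*, a subunit of a clathrin adaptor, was 25.0 CPM in WT DP-like and 10.2 CPM in WT mature SP-like cells, and 30.4 and 24.3 CPM in *Eif4g2* cKO. *Ywhaz*, a 14-3-3 protein, was 461 and 399 CPM in WT against 580 and 550 CPM in *Eif4g2* cKO. The likeness is of shape on a log scale and not of size, since *Ywhaz* differed less between classes than *Cd81*.

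Of 24 other tetraspanins of the family, 9 had at least 50 UMIs in early post-selection-like cells. There 2 were higher, 4 lower and 3 within 0.5, with a median of -0.40 beside -0.29 for all genes. Of all genes there 6.97% were higher and 37.4% lower. In DP-like cells 2 of 8 were higher and 2 lower, beside 8.34% and 30.1% of all genes. *Tspan6* was higher at 13.6 CPM in WT against 30.5 CPM in *Eif4g2* cKO, with a log2 ratio of 1.16 (0.52 to 1.83), and in DP-like cells by 0.93 (0.46 to 1.41). *Tspan31* was 11.5 and 19.1 CPM, a ratio of 0.73 (-0.02 to 1.5), and *Tspan3* 40.5 and 42.4 CPM (0.06).

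*Tspan9* was 23.9 CPM in WT against 8.79 CPM in *Eif4g2* cKO early post-selection-like cells, a ratio of -1.44 (-2.32 to -0.64). In mature SP-like cells *Tspan9* had 129 WT UMIs (65.7 CPM) and 1 *Eif4g2* cKO UMI (4.04 CPM). *Tspan5*, which regulates the exit of ADAM10 protease from the endoplasmic reticulum, was 46.9 and 21.7 CPM, a ratio of -1.11 (-1.66 to -0.59), and in DP-like cells -1.57 (-2.01 to -1.15). *Tspan14*, of the same subgroup, was 32.8 and 19.6 CPM, a ratio of -0.74 (-1.34 to -0.16). In the mature SP-like class 0 of 6 other tetraspanins were higher and 3 were lower, beside 15.2% and 34.4% of all genes.

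Among 24 known partners of tetraspanins, 14 had enough UMIs in early post-selection-like cells, with 0 higher, 5 lower and 9 within 0.5 (6.97% and 37.4% of all genes were higher and lower), and a median of -0.41. The lowest ratios were those of the integrin chains *Itga4*, from 67.8 to 40.3 CPM (-0.75, -1.16 to -0.35), *Itgal*, from 200 to 121 CPM (-0.72, -0.96 to -0.49), and *Itga6*, from 21.7 to 13.4 CPM (-0.69, -1.44 to 0.01). The highest were those of the coreceptor chains *Cd4* (0.17, 0.03 to 0.30), *Cd8b1* (0.05) and *Cd8a* (-0.05). In cycling-like cells 13 of 16 partners were lower, where 46.9% of all genes were, and in mature SP-like cells 6 of 15 were lower and 2 higher, beside 34.4% and 15.2%.

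Of 17 genes of the extracellular vesicle machinery, 15 had enough UMIs in early post-selection-like cells, with 0 higher and 4 lower, beside 6.97% and 37.4% of all genes. The ESCRT-0 genes *Stam2* (34.1 and 13.4 CPM, -1.34, -2.04 to -0.69) and *Stam* (-0.75, -1.47 to -0.06) and the ESCRT-III gene *Chmp4b* (-0.57, -1.0 to -0.15) had the lowest ratios. *Tsg101* of ESCRT-I (69.5 and 96.1 CPM, 0.47, 0.16 to 0.78), the recycling GTPase *Rab11a* (0.40, 0.15 to 0.65) and *Vps4a* (0.23) had the highest. In mature SP-like cells 4 of 12 were higher and 2 lower, beside 15.2% and 34.4% of all genes.

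All 15 lysosome genes had enough UMIs in early post-selection-like cells, with 2 higher and 5 lower, beside the same 6.97% and 37.4%. The membrane glycoprotein *Lamp1* had the highest ratio (73.8 and 118 CPM, 0.68, 0.39 to 0.98). The enzyme receptor *Scarb2* (85.3 and 47.0 CPM, -0.86, -1.23 to -0.49) and the cholesterol exporters *Npc1* (-0.66, -1.45 to 0.10) and *Npc2* (415 and 265 CPM, -0.64, -0.80 to -0.49) had the lowest. In DP-like cells 13 of 14 lysosome genes were within 0.5 and 1 was higher, where 8.34% of all genes were higher and 30.1% lower. In mature SP-like cells 4 of 13 were higher and 6 lower, where 15.2% and 34.4% of all genes were. The medians of the vesicle and lysosome lists in early post-selection-like cells were -0.15 and 0.04, beside -0.29 for all genes.

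**Figure D4:**
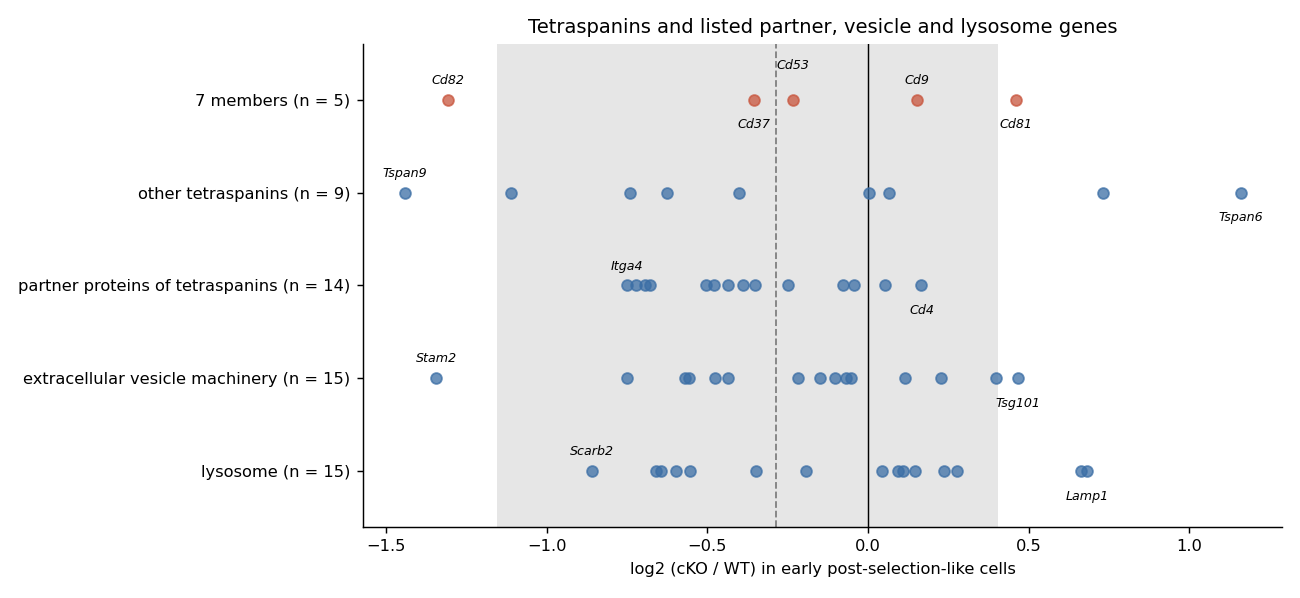
Log2 ratio of *Eif4g2* cKO to WT in early post-selection-like cells (horizontal axis) for the tetraspanins followed here (red) and for the listed genes (blue) with at least 50 UMIs, 1 point a gene, with the tetraspanins followed here and the lowest and highest gene of each list named. The grey band is the 10th to 90th percentile of all genes and the dashed line their median of -0.29; each list spreads over both sides of that median, with *Cd82* (-1.31), *Tspan9* (-1.44) and *Stam2* (-1.34) left of the band and *Tspan6* (1.16) farthest right.

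**Figure D5:**
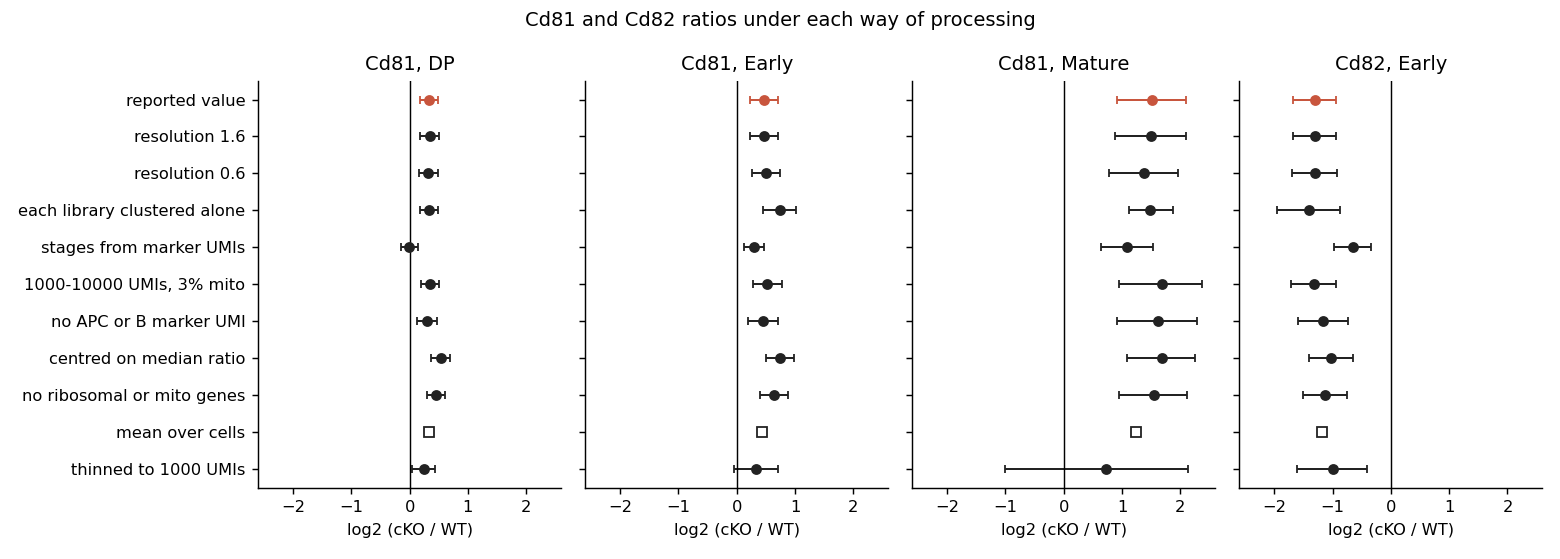
Log2 ratio of *Eif4g2* cKO to WT (horizontal axis) for *Cd81* in 3 classes and *Cd82* in early post-selection-like cells, as given in the text (red) and under each other way of processing (black), with bars for the 95% interval and open squares where no interval was computed. *Cd81* in mature SP-like cells ranged from 0.73 to 1.69, *Cd82* in early post-selection-like cells from -1.40 to -0.65, and *Cd81* in DP-like cells reached 0 when stages were taken from marker UMIs. The marker UMIs do not set dividing cells apart.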

How the data were processed

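Droplet libraries of thymus from 1 WT and 1 *Eif4g2* cKO mouse were made on the DNBelab C4 system. The authors ran dnbc4tools (version 2.1.3 per the labels, 3.0 per the file headers) and deposited raw UMI counts per gene and barcode; the submitters' processing notes name mm10. Identifiers matched GENCODE M21 in 21379 of 21926 cases (97.5%), from which positions were taken. The oligo libraries hold no values of their own, and each count table was assigned to the cDNA library of that name.

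Cells with at least 50 genes and at most 10% mitochondrial UMIs were kept, following the study's filter, which left 6012 of 6014 WT and all 4335 *Eif4g2* cKO barcodes, more cells than the study reports after its own quality control. No doublets were removed. Log values of counts per 10000 UMIs were used, and 2000 variable genes without the tetraspanins, *Eif4g2* and sex-linked genes gave 30 components, 20 neighbours and Leiden clusters at resolution 1.0 (leidenalg 0.10.2, scikit-learn 1.9.0), first for all cells and then for the T lineage. Names needed 3 markers raised by 0.5 on the log2 scale, are rebuilt names, and need not match the study's classes. UMIs were summed per class and library and scaled to CPM. Intervals (95%) are Poisson for levels, conditional binomial for ratios and Clopper-Pearson for shares. They cover counting error only. A count of 0 was read as allowing up to 3 UMIs. Steps were tested on simulated counts.

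The members, gene lists and comparisons were chosen with earlier results of these data known. Genes named are the 7 members, the 3 highest and 3 lowest early post-selection-like ratios of each list among genes with at least 50 UMIs, the 5 genes most like *Cd81* (log2 of CPM plus 10), *Eif4g2* and *Cd3e*. A few genes that this rule names are not reported here. Alternatives changed resolution, joint clustering, stage definition, cell filter, scaling, weighting and depth. Leaving out cells with antigen-presenting or B cell markers was chosen after seeing the data.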

Additional observations from a re-analysis of the deposited data

Results flagged for a closer look

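The *Eif4g2* cKO to WT ratio of *Cd81* took opposite signs in different classes, with intervals that exclude 0 on each side. It was 0.34 in DP-like, 0.46 in early post-selection-like and 1.52 in mature SP-like cells, and -0.23 in cycling-like cells. The difference between classes was not tested, since there is 1 library per genotype. The cycling-like value was above 0 within each of its 4 clusters taken alone, and it changed sign under 7 of the 9 alternatives.

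The ratio of *Cd82* also took opposite signs, at 1.15 in NKT or γδ T-like cells, -0.50 in cycling-like cells and -1.31 in early post-selection-like cells. This difference was not tested either, and the NKT or γδ T-like value rests on 15 *Eif4g2* cKO cells. The *Cd82* ratio differed in sign between single cycling-like clusters, from -1.60 to 0.65.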

How the results depend on the processing

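Over all alternatives, *Cd81* in mature SP-like cells stayed above 0 (0.73 to 1.69), *Cd81* in early post-selection-like cells stayed above 0 (0.30 to 0.75) and *Cd82* in early post-selection-like cells stayed below 0 (-1.40 to -0.65); the causes of the changes given here were not tested. After thinning, the intervals of *Cd81* included 0 in early post-selection-like (0.34, -0.039 to 0.71) as well as mature SP-like cells. Of the recomputed tetraspanin ratios, 196 stayed within the 95% interval of the value given in the report, 13 whose interval there excluded 0 changed sign, and 22 others moved outside it.

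With each library clustered alone, the log2 ratio was -0.20 for *Cd9* in mature SP-like cells, 0.16 for *Cd37* in cycling-like cells, 0.046 for *Cd37* in early post-selection-like cells, 0.50 for *Cd81* in cycling-like cells and 0.74 for *Cd81* in early post-selection-like cells, where its *Eif4g2* cKO level was 194 CPM. Centring on the median ratio gave 0.051 for *Cd53* and 0.75 for *Cd81* in early post-selection-like cells, and 0.53 in DP-like and 0.22 in cycling-like cells for *Cd81*. With stages taken from marker UMIs, which do not set dividing cells apart, *Cd81* was 118 CPM in both libraries in DP cells (ratio -0.0035). Early post-selection cells by that definition held 95.3 CPM in WT against 118 CPM in *Eif4g2* cKO. Thinning to 1000 UMIs gave -0.038 for *Cd9* and 0.73 for *Cd81* in mature SP-like cells and 0.29 for *Cd81* in cycling-like cells. The cycling-like *Cd81* ratio was also 0.40 at resolution 1.6, 0.23 at resolution 0.6, 0.25 under the stricter cell filter, 0.043 without ribosomal protein and mitochondrial genes, -0.0033 as a mean over cells and -0.041 without cells holding antigen-presenting or B cell markers (chosen after seeing the data).

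Without thinning, the shares of cells with a *Cd81* UMI in WT and *Eif4g2* cKO were 16.7% and 23.5% in DP-like, 19.4% and 32.8% in early post-selection-like and 16.3% and 37.0% in mature SP-like cells. At 2000 UMIs, with shallower cells left out, they were 21.6% and 25.5%, 15.7% and 26.8%, and 9.25% and 27.9%. The 5 genes most like *Cd81* were the same 5 with a pseudocount of 1 CPM and with a minimum of 50 UMIs.

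The number of genes past 0.5 moved with the minimum. With 20 UMIs it was 833 higher and 2350 lower in DN-like, 782 higher in early post-selection-like and 1390 higher in mature SP-like cells. With 1 UMI in each library it was 1447 higher and 4197 lower in DN-like, 1601 higher in DP-like, 1283 higher and 4357 lower in early post-selection-like, and 2247 higher and 2893 lower in mature SP-like cells. Centred on the median it was 1500 higher in DP-like, 2065 higher and 2244 lower in cycling-like, and 1347 higher and 1696 lower in early post-selection-like cells.

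No paired analysis was possible because each genotype has 1 library. Depth limits *Cd63* and *Cd151*, and *Cd9*, *Cd53* and *Cd82* in DP-like and cycling-like cells. Their levels there lie within the intervals of WT erythroid-like cells, as does that of *Cd81* in WT DN-like cells. The mature SP-like and NKT or γδ T-like values rest on few *Eif4g2* cKO cells.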
